A study of Homo sapiens with 4 samples.

Results

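Integrins are heterodimers of an alpha and a beta chain that span the plasma membrane and hold cells to the extracellular matrix or to other cells, and laminins are heterotrimers of an alpha, a beta and a gamma chain that form the backbone of basement membranes. The alpha chain of an integrin largely sets what it binds, such as collagen, laminin, the RGD motif of fibronectin and vitronectin, or counter-receptors on other cells, while the beta chain carries most of the link to the cytoskeleton. In the liver, sinusoidal endothelial cells, stellate cells and tumour cells use different sets of these receptors, and laminins increase where a basement membrane forms. The genes described here are 34 integrin and laminin chain genes, 24 integrins and 10 laminins, chosen by name from 19821 protein-coding genes on the autosomes and X. All 34 were found in the gene table. For each, H3K27ac and SMARCB1 peaks were measured over the gene record and 10 kb on each side (hg38), as the number of bases that peaks cover.

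The cells were SK-Hep1, a human hepatic adenocarcinoma line. ChIP-seq of H3K27ac, an acetylated histone tail found where promoters and enhancers are in use, was made in cells with a control shRNA (shCon, called control below) and in cells with an shRNA against SMARCB1 (shSMARCB1, called knockdown), and a separate ChIP, whose labels name no shRNA, was made of SMARCB1, which belongs to the core of SWI/SNF chromatin remodellers. Infected cells were kept under puromycin, and the labels name neither the shRNA sequences nor a clone. There was 1 library per group, so no difference below has a replicate check and none was tested. The peaks were called from 13235203 tags for the control and 10203310 for the knockdown, a ratio of 1.30, both against the control input. A deeper library lets weaker stretches pass as peaks, and the part of depth in any difference in covered length was not tested. The sources used here do not give the depth of the SMARCB1 library.

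The label of the cells was set beside the H3K27ac of marker genes, measured in the same windows. H3K27ac was present in at least 1 library at 2 of 8 hepatocyte genes, with ALB, APOA1, APOB, TTR and HNF4A among those without, and at 5 of 7 endothelial, 6 of 6 epithelial and 6 of 6 mesenchymal genes. Defining markers of hepatocytes were therefore without peaks. The windows can also hold peaks of neighbouring genes. RNA was not measured, and the knockdown itself cannot be checked from these files.

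Promoter sequences were available for 24 of the 34 genes, from the RefSeq table of GRCh38.p14, as 30 entries of 250 bases before and 50 after a start. For 15 of the 24 genes a whole entry lay in H3K27ac of both libraries, for 8 no entry was touched in either, and LAMA4 was touched in the control only. SMARCB1 peaks reached into an entry at 3 genes, ITGA1, ITGB5 and LAMA5. Counted by entry, 63.3% lay wholly in control H3K27ac, 60.0% wholly in knockdown H3K27ac and 10.0% held a SMARCB1 base, against 56.1%, 53.2% and 7.70% of the entries of all protein-coding genes. The 250 bases before the start are shown here for these 4 genes, and for LAMB3 and ITGB1, the 2 genes with the most covered length among those with a listed promoter acetylated in both libraries and free of SMARCB1. All are read 5′ to 3′ on the strand of the gene. In the first 3, capitals mark bases under a SMARCB1 peak.
ITGA1 (chr5:52787666-52787915, plus strand): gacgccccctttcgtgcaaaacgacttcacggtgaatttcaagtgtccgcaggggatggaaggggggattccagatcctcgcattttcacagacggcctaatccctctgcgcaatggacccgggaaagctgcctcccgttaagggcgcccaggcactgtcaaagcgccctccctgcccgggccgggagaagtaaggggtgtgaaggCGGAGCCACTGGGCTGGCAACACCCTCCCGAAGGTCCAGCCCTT
ITGB5, an internal start (chr3:124887366-124887615, minus strand): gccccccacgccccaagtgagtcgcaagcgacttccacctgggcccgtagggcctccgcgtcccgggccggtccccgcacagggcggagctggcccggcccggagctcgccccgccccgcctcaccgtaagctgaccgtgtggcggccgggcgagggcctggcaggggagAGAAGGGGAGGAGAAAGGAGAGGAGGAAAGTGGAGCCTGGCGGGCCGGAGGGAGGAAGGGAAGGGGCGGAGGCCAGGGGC
LAMA5 (chr20:62367313-62367562, minus strand): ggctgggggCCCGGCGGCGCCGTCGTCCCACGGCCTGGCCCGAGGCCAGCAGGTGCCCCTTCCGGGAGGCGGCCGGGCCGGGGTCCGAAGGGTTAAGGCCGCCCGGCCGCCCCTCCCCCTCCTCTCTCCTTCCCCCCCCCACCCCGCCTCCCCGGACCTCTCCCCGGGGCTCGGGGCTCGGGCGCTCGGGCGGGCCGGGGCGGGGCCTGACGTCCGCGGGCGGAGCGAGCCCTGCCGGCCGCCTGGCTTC
In LAMA4, capitals mark bases under an H3K27ac peak of the control that no knockdown peak reached.
LAMA4 (chr6:112254568-112254817, minus strand): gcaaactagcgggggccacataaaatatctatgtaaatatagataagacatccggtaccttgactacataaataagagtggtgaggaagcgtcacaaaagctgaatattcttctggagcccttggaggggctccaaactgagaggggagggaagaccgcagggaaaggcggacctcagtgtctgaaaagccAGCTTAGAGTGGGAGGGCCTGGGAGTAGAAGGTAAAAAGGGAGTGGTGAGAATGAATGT
In the last 2, capitals mark GGAATG, bound by TEAD factors, and GGGCGG, bound by SP and KLF factors, on either strand.
LAMB3 (chr1:209652426-209652675, minus strand): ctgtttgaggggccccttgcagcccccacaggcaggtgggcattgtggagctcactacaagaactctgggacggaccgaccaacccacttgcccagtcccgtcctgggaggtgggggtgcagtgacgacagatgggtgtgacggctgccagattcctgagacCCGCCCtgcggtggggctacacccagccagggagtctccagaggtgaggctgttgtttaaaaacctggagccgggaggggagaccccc
ITGB1 (chr10:32958231-32958480, minus strand): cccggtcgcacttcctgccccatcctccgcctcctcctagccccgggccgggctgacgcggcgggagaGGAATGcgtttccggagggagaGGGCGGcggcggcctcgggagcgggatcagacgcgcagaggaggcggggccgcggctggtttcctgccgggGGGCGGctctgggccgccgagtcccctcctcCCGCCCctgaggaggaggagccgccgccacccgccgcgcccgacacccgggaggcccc

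Within these windows the SMARCB1 peaks held 44 bases at ITGA1, 80 at ITGB5 and 241 at LAMA5, and the control peak held 59 at LAMA4. All 3 SMARCB1 peaks ran on past the start. Acetylated entries were rich in G and C, with a median of 70.0% over the 19 entries that H3K27ac reached in both libraries, against 51.4% over the 10 it reached in neither and 62.0% over 22156 entries of all protein-coding genes. Motifs were counted on both strands, and different motifs may share bases. GGGCGG was present in 16 of the 30 entries, or 53.3%, against 53.7% of all entries, and GGAATG in 4, or 13.3%, against 10.5%. TGANTCA, the AP-1 motif, was present in 2, at LAMA3 and at an internal start of LAMB3, or 6.67% against 5.36%. CCAAT was present in 4, or 13.3%, against 32.7%. These are matches of letters and do not show binding.

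H3K27ac was called at 31 of the 34 genes, and at 29 of them in both libraries. The share of all protein-coding genes with H3K27ac in both was 74.5%. No peak was called at ITGA8, ITGA9 and ITGAX, which encode partners of ITGB1 on mesenchymal and other cells and the myeloid chain CD11c. ITGAM, the myeloid chain CD11b, and LAMC3, a laminin gamma chain, had H3K27ac in the control only, against 2.05% of all genes, and none of the 34 had it in knockdown cells only, against 1.2%. Of the covered length, 7.86% in control cells and 8.30% in knockdown cells lay within 1 kb of an end of another gene, where it cannot be assigned to either. Covered length ranged widely. ITGA3, LAMB3 and ITGB1 together held 71.2 of 252.3 kb in control cells and 57.1 of 217.1 kb in knockdown cells.

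**Figure D1:**
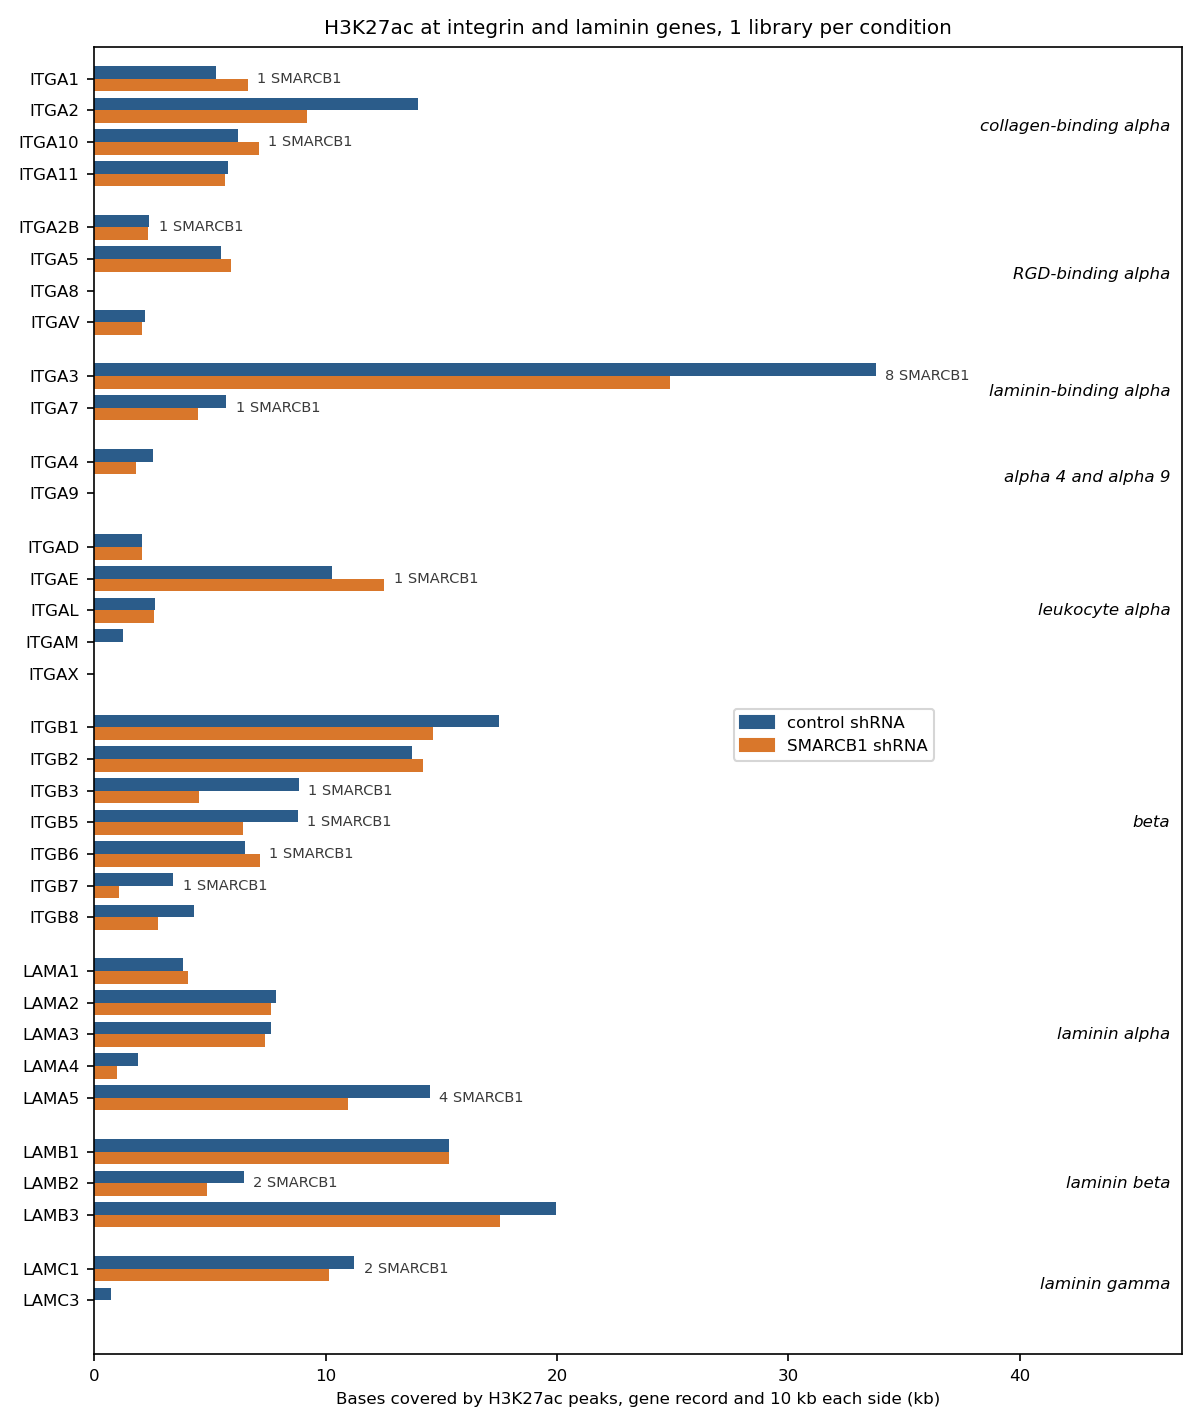
Bases covered by H3K27ac peaks (kb) at each of the 34 genes, in the gene record and 10 kb on each side, grouped by role. Blue bars are the control library, orange bars the SMARCB1-knockdown library, and the text at a bar counts SMARCB1 peaks in the window; ITGA3 has the longest bars and 8 SMARCB1 peaks.

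Over all windows the covered length was 0.861 times as long in knockdown cells as in the control, close to the 0.892 of the genome. The ratio of summed length was 0.849 for integrins and 0.882 for laminins. The median gene kept more than this sum. Over the 29 genes marked in both libraries the median ratio was 0.946, against 0.889 over all protein-coding genes marked in both. Of the 31 genes marked in either library, 24 had more covered length in control cells and 7 in knockdown cells, or 77.4% on the control side, against 76.0% of all marked genes. After scaling to the total covered length of each library the split was 15 and 16, or 48.4%, against 51.5%, with ITGA11, ITGA2B, ITGAD, ITGAL, ITGAV, LAMA2, LAMA3, LAMB1 and LAMC1 changing sides. Of the difference in summed length, 35.2 kb, 14.3 kb lay in 5 genes past the call described next, which picks genes for a large difference. The 29 genes not called held 20.9 kb, of which 8.89 kb was at ITGA3. These sums are net of genes with more covered length in knockdown cells.

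A gene was called where 1 library covered at least 1.5 times the length of the other and at least 1000 bp more. Higher in the control were 5 of 34 genes, ITGA2, ITGAM, ITGB3, ITGB7 and ITGB8, all of them integrins, against 5.38% of all protein-coding genes and 6.92% of those with H3K27ac in either library. Higher in knockdown cells was none, against 1.57% and 2.02%. Of the genes of 50 kb or longer, as 23 of the 34 are, 7.36% were called higher in control cells and 2.85% higher in knockdown cells. With each library scaled to its total covered length, ITGAM, ITGB3 and ITGB7 passed, and the split over all genes moved from 1067 higher and 311 lower in the control to 585 and 484. Of the 5 calls, 3 were among the 7 beta chains.

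**Figure D2:**
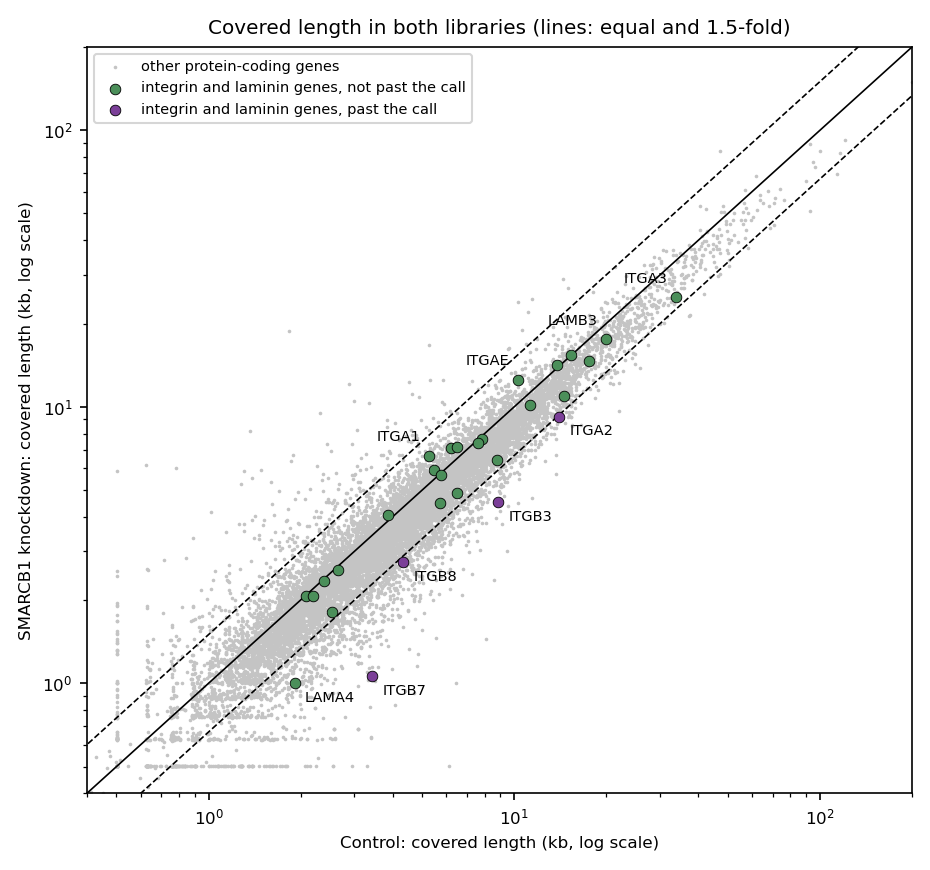
Covered length (kb, log scales) in the control (x axis) and the knockdown (y axis) for each protein-coding gene with H3K27ac in both libraries; the solid line marks equal length and the dashed lines 1.5-fold. The 29 integrin and laminin genes among them are drawn large, those past the call in purple; ITGAM and LAMC3, listed at 0 in knockdown cells, are not drawn.

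Among the collagen-binding alpha chains, ITGA2 had less acetylated length in knockdown cells and ITGA1 and ITGA10 had more. ITGA2, the alpha chain of the collagen receptor on platelets and epithelial cells, had 6 control peaks and 6 knockdown peaks, all paired, which covered 13991 bp in control cells and 9210 bp in knockdown cells. No peak was lost there, and the difference came from narrower peaks. The promoter peak was 3916 bp in control cells and 2347 bp in knockdown cells. The control peaks that began 15033 and 17038 bp past the start had 1425 and 1548 bp, and 501 bp each, the narrowest width in the lists, in knockdown cells. At 1.52-fold ITGA2 lay just inside the call, and it fell outside it when the gene record alone or 25 kb flanks were used, at 2-fold, and after scaling.

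ITGA1, another collagen-binding chain and the neighbour of ITGA2 at a distance of 30142 bp, had 5265 bp in control cells and 6645 bp in knockdown cells, a ratio of 1.26 and the highest of the 29 genes marked in both libraries. Its promoter peak, which also covers the promoter of the nested gene PELO, had 1723 and 1576 bp. Knockdown peaks of 501 bp at 49.3 kb and of 1424 bp at 68.1 kb past the start had no control counterpart, and a control peak of 501 bp before the start had no knockdown counterpart. The 2 neighbouring collagen receptor genes thus differed in direction. ITGA10, a chondrocyte collagen receptor chain, had 6216 bp in control cells and 7109 bp in knockdown cells, with a knockdown peak of 1214 bp beyond the end of the gene that the control lacked. Its SMARCB1 peak, of value 12.1, lay in the flank at an end of the neighbour ANKRD35. ITGA11, the collagen receptor chain of fibroblasts, had 5767 and 5658 bp, all of it inside the gene and none at its listed promoter.

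Of the RGD-binding alpha chains, ITGA5 and ITGAV kept promoter peaks at close to the same width, and ITGA8 had none. ITGA5, the fibronectin receptor chain, had 5480 bp in control cells and 5925 bp in knockdown cells, in 2 peaks in each library. ITGAV, the alpha chain of the vitronectin receptors, had a single promoter peak of 2196 bp in control cells and 2077 bp in knockdown cells. ITGA2B, the platelet fibrinogen receptor chain, had 2392 and 2344 bp, with no H3K27ac at its promoter. Its only peak inside the gene, 3.45 kb past the start in the control, lay over a SMARCB1 peak of value 11.6 in an exon.

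ITGA3, the alpha chain of a laminin receptor of epithelial and tumour cells, had the most acetylated length and the most SMARCB1 peaks of the 34 genes. It covered 33766 bp in control cells and 24872 bp in knockdown cells, and ranked 171 of 19821 genes by the sum of both. A single domain of 22678 bp in the control (chr17:50045847-50068524) and 21010 bp in knockdown cells (chr17:50046176-50067185) reached from outside the gene into its low-coordinate part. By width it ranked 50 of 35307 control peaks and 31 of 34073 knockdown peaks. The domain itself differed little, and the rest of the locus differed more: counted whole, 6 further control peaks summed to 11351 bp and 4 further knockdown peaks to 3862 bp. Counting the gene record alone, ITGA3 passed the call.

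The 8 SMARCB1 peaks at ITGA3 set it apart in number, since 4 of the 19821 genes, or 0.0202%, had as many. The authors' number for each SMARCB1 peak, whose unit is not given, serves only to rank peaks within that list. Of the 8, 5 lay under the wide domain in both libraries, with values from 10.0 to 20.6. Among these 5, the peak at chr17:50055364-50055863, of value 10.6, was classed as promoter-TSS by the authors. It lay 247 bp outside the low-coordinate end of the record of ITGA3, a gene without a listed promoter. The peak of highest value, 24.3 (rank 339 of 4453), was classed as 3' UTR by the authors and lay at chr17:50089129-50089628, without H3K27ac in either library. The peak at chr17:50077078-50077577, of value 11.6, overlapped a control H3K27ac peak of 3523 bp by 465 bases and no knockdown peak. Another lay at the promoter of the neighbour PDK2. ITGA7, the laminin-binding chain of muscle, had 5718 bp in control cells and 4506 bp in knockdown cells. All 3 of its peaks in each library lay within 1 kb of ends of neighbouring genes, as measured in the RefSeq records. The widest, of 2896 bp in control cells and 2438 bp in knockdown cells, also covered the high-coordinate end of ITGA7. It held 821 and 822 bp inside the gene. The SMARCB1 peak of ITGA7, of value 11.6, lay in the flank inside BLOC1S1.

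ITGA4, which pairs with ITGB1 or ITGB7 and binds fibronectin and VCAM1, had a promoter peak of 2531 bp in control cells and 1808 bp in knockdown cells, and no other peak. Most of the leukocyte alpha chains had little acetylation of their own. ITGAM had a single control peak of 1239 bp, 4.82 kb past its start (chr16:31264795-31266033), and 0 bp in knockdown cells. It was the only gene of the 34 that passed the call under each alternative tried. With 0 bp in knockdown cells, neither a higher fold nor scaling could alter the call of ITGAM. ITGAL, the CD11a chain, had 2649 and 2571 bp, in a peak outside the gene that covers the promoter of ZNF768. ITGAD, the CD11d chain, had 1 peak of 2079 bp in control cells and 2072 bp in knockdown cells, inside the gene.

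ITGAE, the CD103 chain that binds E-cadherin, differed from the other leukocyte chains in its long coverage, 10258 bp in control cells and 12541 bp in knockdown cells, a ratio of 1.22. The peak at its promoter, which also reaches an end of NCBP3, widened from 3671 to 5291 bp. Knockdown peaks of 1230 and 501 bp inside the gene had no control counterpart, and a control peak of 787 bp beyond its end had none in knockdown cells. A SMARCB1 peak of value 13.7 in its window lay at the ends of HASPIN and P2RX5, not at the ITGAE promoter.

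The beta chains held 3 of the 5 calls, and their median ratio of knockdown to control was 0.729, against 0.889 over all genes. ITGB3, which pairs with ITGAV and ITGA2B, had 7 peaks and 8861 bp in the control, and 5 peaks and 4526 bp in knockdown cells. The peak at chr17:47304280-47306997 was 2718 bp in control cells and 501 bp in knockdown cells, and control peaks of 501 and 758 bp had no counterpart. A SMARCB1 peak of 651 bp and value 12.7 in an intron (chr17:47276813-47277463) overlapped no H3K27ac. The loss at ITGB3 was thus largest away from the gene record's low-coordinate end, where a peak of 1420 bp in the control had 960 bp in knockdown cells. At 2-fold the call of ITGB3 was lost.

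ITGB7, the lymphocyte beta chain that pairs with ITGA4 and ITGAE, had 3428 bp in control cells and 1059 bp in knockdown cells, the lowest ratio of the 29, 0.309. All acetylation inside the gene was found in the control only, in peaks of 1238 bp (chr12:53197216-53198453) and 630 bp (chr12:53206295-53206924), the latter 0.327 kb past the start. Another control peak, of 501 bp, lay 704 bp beyond the end of the gene and overlapped a SMARCB1 peak of value 10.6 by 253 bases. The peaks shared by both libraries were those at ZNF740 and CSAD on one side and in RARG on the other. The ITGB7 call was lost with 25 kb flanks, which take in more of these neighbours.

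ITGB8, which pairs with ITGAV and activates TGF-beta, had 4322 bp in control cells and 2745 bp in knockdown cells. Its promoter peak changed from 2471 to 2104 bp and the peak near its far end from 1350 to 641 bp, and a control peak of 501 bp had no counterpart. The call was lost at 2-fold and after scaling. ITGB5, another partner of ITGAV, had 8800 and 6415 bp and did not pass the call, though control peaks of 501, 689 and 889 bp inside the gene had no knockdown counterpart, and a knockdown peak of 652 bp had no control counterpart. The SMARCB1 peak of ITGB5 (value 19.0, chr3:124886545-124887445) lay at the internal start shown above, inside H3K27ac of 2240 bp in control cells and 1693 bp in knockdown cells. The outermost ITGB5 promoter had H3K27ac of 897 and 626 bp and no SMARCB1 peak.

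The remaining beta chains did not pass the call. ITGB1, the common partner of most alpha chains, had 17497 bp in control cells and 14641 bp in knockdown cells. A promoter domain of 14689 bp in the control was divided into peaks of 11312 and 2327 bp in knockdown cells. ITGB2, the leukocyte beta chain, had 13753 and 14199 bp, and the peak at the high-coordinate end of its record had 5207 bp in control cells and 6636 bp in knockdown cells. Its direction turned with the window: the gene record alone had 9980 bp in control cells and 7866 bp in knockdown cells, and with 25 kb flanks the control covered 5742 bp more. ITGB6, an epithelial partner of ITGAV, had no H3K27ac at its promoter and a peak of 6842 bp in control cells and 6670 bp in knockdown cells that began 4427 and 4553 bp before its start and reached past the window, with a SMARCB1 peak of value 13.2 inside it. Covered length at ITGB6 was 6509 bp in control cells and 7155 bp in knockdown cells.

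**Figure D3:**
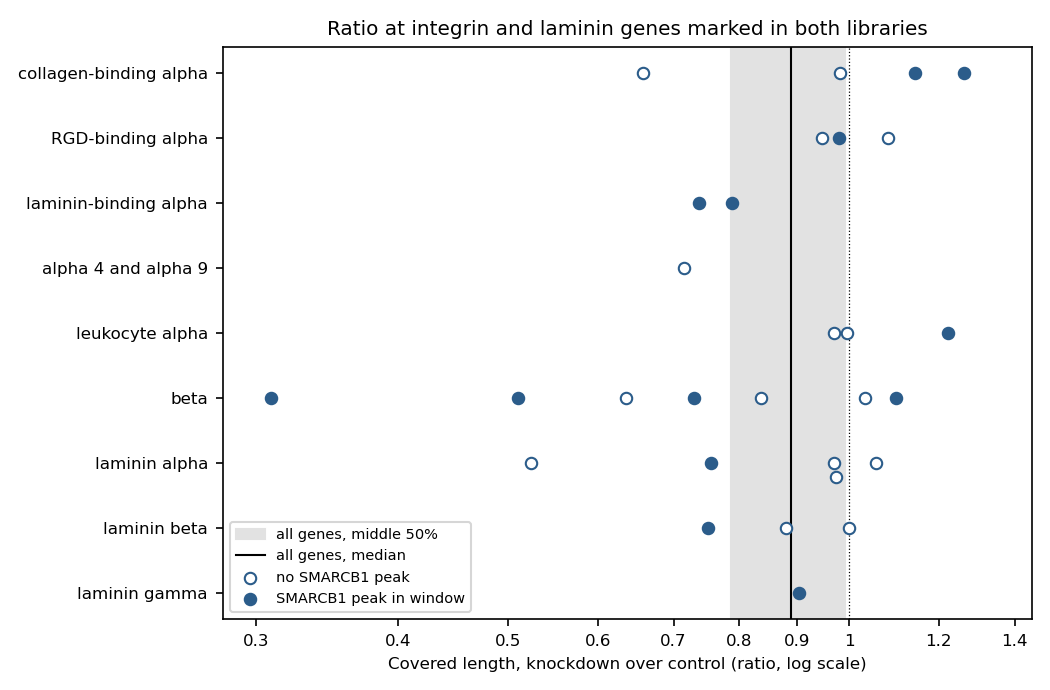
Covered length in knockdown cells over that in the control (ratio, log scale) for the 29 genes marked in both libraries, by role; filled circles are genes with a SMARCB1 peak in the window. The grey band and the line give the middle 50% (0.787 to 0.991) and the median (0.889) of all protein-coding genes; the lowest points are ITGB7 and ITGB3.

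None of the 10 laminin genes was called, and 9 of them had more covered length in the control, or 5 after scaling. LAMA5, the alpha chain of laminins of mature epithelium and vessels, had 14502 bp in control cells and 10963 bp in knockdown cells. Its promoter peak was 3940 bp in control cells and 1869 bp in knockdown cells, the latter still holding the whole SMARCB1 peak of 500 bp and value 13.2 (chr20:62367054-62367553). The window held 4 SMARCB1 peaks, a number reached by 0.308% of all genes, of which 1 lay at the promoter of the neighbour ADRM1 and 1, in an exon near the end of LAMA5, had no H3K27ac. The remaining peak, of value 8.98 in an intron, lay inside H3K27ac of 4181 bp in control cells and 3236 bp in knockdown cells.

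The other laminin alpha chains had no SMARCB1 peak. LAMA4, a chain of vessel and muscle laminins, had 1912 bp in control cells and 1002 bp in knockdown cells, just outside the call because the difference was 910 bp. Its promoter peak of 776 bp in control cells overlapped a knockdown peak of 501 bp. That knockdown peak began 0.196 kb past the start and did not reach the promoter bases shown above. LAMA3, the alpha chain of laminin-332 in skin and epithelia, had 7636 and 7405 bp, with no H3K27ac at the listed internal promoter and a peak of 1020 bp in control cells and 1042 bp in knockdown cells at the outer end of the gene record. LAMA2, the muscle laminin chain, had 7859 and 7651 bp in 2 peaks that began over 606 kb past its start, near the far end of the gene. LAMA1, the embryonic chain, had 3857 and 4076 bp, and was the only laminin gene with more in knockdown cells.

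LAMB1, LAMB2, LAMB3 and LAMC1 were acetylated at a listed promoter in both libraries, and LAMC3 has no listed promoter. LAMB3, the beta chain of laminin-332, had 19958 bp in control cells and 17554 bp in knockdown cells, most of it in a promoter domain of 16865 and 15053 bp. LAMB1, the widely expressed beta chain, had 15352 and 15337 bp, the ratio closest to 1 of the 29 genes. Inside LAMB1 a peak of 6378 bp in the control was divided into peaks of 3087 and 2994 bp in knockdown cells, while the promoter peak widened from 4797 to 5596 bp. LAMB2, the beta chain of kidney and synaptic laminins, had 6479 and 4866 bp and 2 SMARCB1 peaks. The SMARCB1 peak of value 17.4 in an intron of LAMB2 (chr3:49130782-49131626) met the promoter H3K27ac at its edge, by 130 bases in control cells and 48 in knockdown cells. The other, of value 8.98 in an exon, overlapped no H3K27ac.

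LAMC1, the gamma chain of most laminins, had 11241 bp in control cells and 10157 bp in knockdown cells, led by promoter peaks of 5694 and 4975 bp. Both of its SMARCB1 peaks, of values 11.1 and 13.2, were classed as 3' UTR and lay 119 and 121 kb past the start. The second of them (chr1:183144453-183144952) lay partly under a knockdown peak of 501 bp that the control lacked, by 316 bases. LAMC3 had a control peak of 751 bp at the low-coordinate end of its record and 0 bp in knockdown cells, a difference under the 1000 bp of the call.

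**Figure D4:**
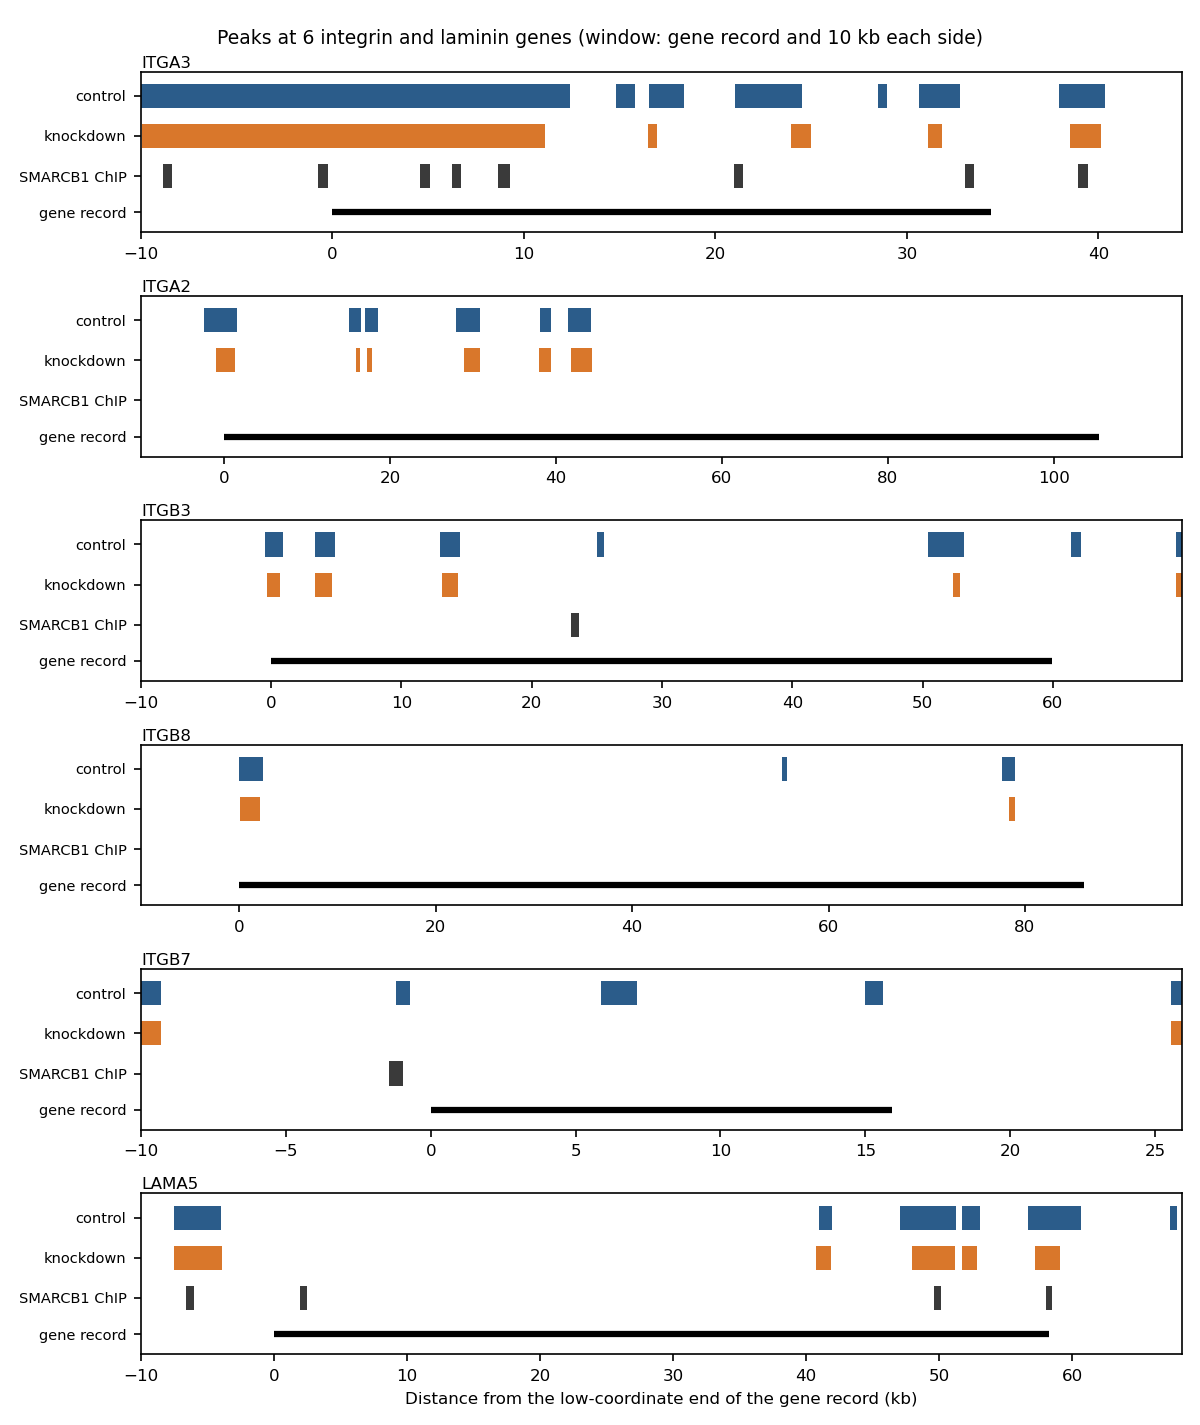
Peaks at ITGA3, ITGA2, ITGB3, ITGB8, ITGB7 and LAMA5, drawn to scale against the distance from the low-coordinate end of the gene record (kb), with control H3K27ac in blue, knockdown H3K27ac in orange, SMARCB1 in dark grey and the gene record as a black line. Bars are cut at the window edge; peaks inside ITGB7 are in the control row only.

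Peaks found in 1 library only were narrow at these genes. Of 110 control peaks, 24 had no knockdown counterpart, or 21.8% (95% Wilson interval 15.1 to 30.4%), and of 98 knockdown peaks 10 had no control counterpart, or 10.2% (5.64 to 17.8%). These intervals cover the counting of peaks only. Over the genome the shares were 17.7% and 12.2%, both within the intervals. Of the 24, 14 had the minimum width of 501 bp, and those of 1000 bp or wider were at ITGAM and ITGB7. Of the 10, those that wide were at ITGA1, ITGA10 and ITGAE. No single-library peak covered a listed promoter of its own gene.

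Most of the control acetylation absent from the knockdown lay at the edges of shared peaks rather than in lost peaks. In the control, 40.3 kb lay at edges and 15.8 kb in whole peaks without a counterpart, and in knockdown cells 13.4 and 7.53 kb. The edges were 16.0% of control length, against 14.4% over the genome. Of 83 peaks that met exactly 1 peak of the other library, 57 were narrower in knockdown cells, or 68.7% (58.1 to 77.6%), against 69.6% over the genome, and the median ratio of widths was 0.926 against 0.913. The narrowing was therefore near that of the genome as a whole.

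SMARCB1 peaks were found in the windows of 13 of the 34 genes, against 23.3% of all protein-coding genes. With the gene record alone 9 had a peak, and with ends of other genes left out 10. The share of all genes was not computed for these 2 settings. The 13 were ITGA1, ITGA2B, ITGA3, ITGA7, ITGA10, ITGAE, ITGB3, ITGB5, ITGB6, ITGB7, LAMA5, LAMB2 and LAMC1. The 34 genes are longer than most, with a median record of 80.5 kb against 24.5 kb, and the part of length in this count was not tested. Of the 23 that are 50 kb or longer 7 had a peak, where 25.5% of all genes that long did (1595 of 6247). Of the 11 shorter ones 6 had a peak. The share of all shorter genes was not computed, and over all lengths it was 4609 of 19821 genes. Of the 25 SMARCB1 peaks, 19 overlapped control H3K27ac, or 76.0% (56.6 to 88.5%), against 70.6% over the whole list. The authors classed 8 as intron, 6 as promoter-TSS, 5 as exon, 4 as 3' UTR and 2 as intergenic. In that order these were 32, 24, 20, 16 and 8%, against 29.4, 29.2, 10.3, 3.84 and 18.5% of the whole list. The values of the 25 peaks were moderate, with a median of 12.7 and a maximum of 24.3, where the whole list had a median of 11.6.

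Among the 5 called genes, ITGB3 and ITGB7 had a SMARCB1 peak, as did 11 of the 29 others. Of the 24 control peaks without a counterpart 1 held a SMARCB1 peak, near ITGB7, and of the 10 knockdown peaks without one 1 did, at LAMC1. Over all peaks at the 34 genes, 14.5% of control and 15.3% of knockdown peaks held one, against 8.65% and 8.82% over the genome. Shared peaks that held SMARCB1 and were narrower in knockdown cells include those inside LAMA5 and ITGB5 described above. A shared peak with SMARCB1 at the ADRM1 promoter, in the LAMA5 window, had 3585 bp in control cells and 3617 bp in knockdown cells. How many shared peaks with SMARCB1 narrowed or widened was not counted. Over the genome 69.6% of paired peaks were narrower. Of the 6 genes with 2 or more SMARCB1 peaks or a SMARCB1 peak at a listed promoter, namely ITGA1, ITGA3, ITGB5, LAMA5, LAMB2 and LAMC1, none passed the call. These counts are too small to compare.

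The genes that act with integrins were measured in the same way, in lists chosen by function. Of 24 focal adhesion genes, which link integrins to actin, none was higher in control cells, against 5.38% of all genes, and 1, PARVB, a parvin, was higher in knockdown cells, against 1.57%, with 2122 bp in control cells and 3223 bp there. Their median ratio was 0.906. ACTN4, an actin crosslinker, had the most covered length, 71537 bp in control cells and 57052 bp in knockdown cells. SMARCB1 peaks lay at 14 of the 24, against 23.3% of all genes, among them ZYX, which encodes zyxin, with 2495 bp under SMARCB1 peaks.

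Genes for basement membrane proteins and integrin ligands had a median ratio of 0.755. Higher in the control were 7 of 22, namely DAG1, EFEMP1, FBLN2, FBN1, NPNT, TGFBI and THBS1, against the 5.38% of all genes given above, and none was higher in knockdown cells. Whether this share differs from that of other genes was not tested. After scaling 5 were called, where 2.95% of all genes were. THBS1, an adhesive glycoprotein bound by several integrins, had 13207 bp in control cells and 8464 bp in knockdown cells, and TGFBI, an integrin ligand, 5655 and 3379 bp. FBN1, the microfibril protein fibrillin, had 2055 and 757 bp, and NPNT, the ligand of the ITGA8 receptor, 1735 and 501 bp. DAG1, the laminin receptor dystroglycan, had 7634 and 4269 bp. The fibulins EFEMP1 and FBLN2 had 5670 and 4238 bp in control cells and 2565 and 2243 bp in knockdown cells. HSPG2, which encodes perlecan, and FBLN1 had the most covered length, 24772 and 21139 bp in control cells and 17280 and 16647 bp in knockdown cells, without passing the call.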

How the data were processed

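Peaks of 3 ChIP-seq libraries from SK-Hep1 cells were analysed, grouped by their titles. An input library was not analysed here. Bowtie2, HOMER and the hg38 build are named, with no versions, per the submitters' processing notes. Per the file headers, H3K27ac peaks were called with HOMER findPeaks in histone style, each library separately against the control input, with peaks of 500 bp stitched into regions, 4-fold over input and over the local 10 kb, from at least 11 tags in the control and 10 in the knockdown. The deposited score is the same for every H3K27ac peak and was not used. The SMARCB1 list carries the authors' number and position class per peak, and the sources used here do not give its caller settings.

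Autosomal and X-linked peaks were used, so 3 peaks of each H3K27ac list and 0 of the SMARCB1 list dropped out. Genes are protein-coding records of the RefSeq table of GRCh38.p14, without 153 records off the main chromosomes, and their exons were not used. Covered length is the number of bases under the peaks in the window, and overlap means at least 1 base. Positions are 1-based. The interval code was tested on 2000 simulated windows and base by base on the 34 genes in both libraries, with 0 mismatches. Every gene past the call, every gene with a SMARCB1 peak and the 10 with the most covered length are given in full, by rule. From the adhesion and matrix lists the rule takes called genes and the 2 with the most covered length, of which 1 is not reported here. ZYX was named after its value was seen. The genes, the lists and the calls were chosen with earlier results of these data known. Alternatives covered the window, peak width, merging, neighbouring gene ends, fold, scaling, overlap and SMARCB1 value. The motifs and the split at 50 kb were chosen after the data were seen. Python 3.11.15, pandas 2.3.3, NumPy 2.4.6, SciPy 1.17.1 and matplotlib 3.10.9 were used.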

Additional observations from a re-analysis of the deposited data

How the results depend on the processing

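The 5 genes called higher in the control numbered 3 with 25 kb flanks, 2 at 2-fold and 3 after scaling to total covered length, and 5 to 7 under the other alternatives. No alternative gave a gene higher in the knockdown. ITGA7 passed when only peaks of at least 1000 bp were kept or when peaks under 2000 bp apart were merged, LAMA4 under the first of these, and LAMB2 when ends of other genes were left out. With 25 kb flanks 1 gene, ITGAM, was marked in 1 library only. Requiring that 50% of a peak be overlapped raised the control peaks without a counterpart to 31.8%. The lists of adhesion and matrix genes were put through the same alternatives after their values were seen: with the gene record alone 1 focal adhesion gene was higher in the control, and at 2-fold 3 matrix genes were. Of 147 differences in covered length under the alternatives, at the genes given in full, 107 stayed within 1.5 times their value with the same sign. The 2-fold alternative alters only the call and not the length, so its differences are among the 107 by construction. No called gene changed direction. Among genes that were not called, 9 of the 34 changed direction after scaling, ITGA7 and ITGB2 with the gene record alone, ITGA5 and ITGB2 with 25 kb flanks, ITGA11, LAMA3 and LAMB1 with peaks of at least 1000 bp, and LAMB1 with merged peaks. Covered length cannot show a change in the height of a peak, and stretches near the calling threshold pass more easily in the deeper control library.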

Other observations

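Several leukocyte receptor chains are members here, so leukocyte markers were measured in the same windows. PTPRC, which encodes the pan-leukocyte phosphatase CD45, had 22777 bp of H3K27ac in control cells and 19991 bp in knockdown cells, more than any of the 34 integrin and laminin genes but ITGA3. Of the 8 leukocyte markers 6 had H3K27ac in at least 1 library, where 15412 of all 19821 protein-coding genes did. CD14 had 3219 and 3700 bp, CD79A 4649 and 4939 bp and CORO1A 1891 and 1621 bp. CD3E and LCP1 had none in either library, CSF1R had 501 bp in the control only, and SPI1 had 1176 and 1430 bp. PTPRC had no SMARCB1 peak in its window. It was singled out after its value was seen.

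Of 7 endothelial markers, 4 had more covered length in knockdown cells, 1 had more in the control and KDR and TEK had none. EMCN had 0 bp in control cells and 1268 bp in knockdown cells, and ERG 1034 and 2356 bp, both past the call in the direction that none of the 34 genes took and that 1.57% of all genes did. PECAM1 had 0 and 900 bp, VWF 5320 and 6706 bp, and CDH5 7517 and 7197 bp.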
